A study of Mus musculus with 4 samples.

Results

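The BCL2 family decides whether the outer membrane of the mitochondrion stays intact. The transcripts examined here are those of 10 genes of this family, taken as every row of the deposited transcript table whose gene symbol was *Bcl2*, *Bcl2l1*, *Mcl1*, *Bax*, *Bak1*, *Bcl2l11*, *Bid*, *Bad*, *Bbc3* or *Pmaip1*. The table held 34200 tested transcripts of 21945 genes, and 18 of these transcripts belonged to 9 of the 10 genes. *Pmaip1*, which encodes NOXA, is not analysed here. The genes were grouped by role: anti-apoptotic (*Bcl2*, *Bcl2l1*, *Mcl1*), effector (*Bax*, *Bak1*) and BH3-only (*Bcl2l11*, *Bid*, *Bad*, *Bbc3*).

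The RNA came from NIH/3T3 cells, an immortalised line of mouse embryonic fibroblasts, transfected with siRNA at 10 nM and harvested after 48 h. The knockdown group (KD, 2 libraries) received siRNA against *Setd2*, the gene of the histone methyltransferase that places H3K36me3 on transcribed genes. The control group, labelled wild type (WT, 2 libraries), received a non-targeting Scrambled siRNA, so both groups had been transfected with the same lipid reagent. The labels number the 2 libraries of a group but tie none of them to one transfection, so the tests below measure the spread between these libraries only.

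Anti-apoptotic members such as BCL2, BCL-xL (from *Bcl2l1*) and MCL1 hold the effectors BAX and BAK in check at the mitochondrial membrane. When freed, the effectors oligomerise and open the membrane, cytochrome c escapes, and caspases are activated. BH3-only proteins such as BIM (from *Bcl2l11*), BID, BAD and PUMA (from *Bbc3*) sense stress and engage the other members through a short helix, the BH3 motif, which multidomain members also carry. Much of this control is exerted on the proteins, through binding, phosphorylation and turnover, which RNA levels do not show.

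The shared motif is given here as it is encoded, 1 window of 30 bases per gene, because its presence or absence separates one of the transcripts that changed from the other members. The sequences come from the GENCODE M21 transcripts (GRCm38 build), 5′ to 3′ on the strand of the gene. Capitals mark the codon of the conserved leucine and the pair of codons, small residue and aspartate, that close the motif.
Mcl1: gagaccCTGcggcgcgtgGGCGACggcgtg
Bcl2l1: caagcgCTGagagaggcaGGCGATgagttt
Bcl2: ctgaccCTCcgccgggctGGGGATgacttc
Bax: gagtgtCTCcggcgaattGGAGATgaactg
Bak1: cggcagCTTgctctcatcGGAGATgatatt
Bcl2l11: caggagCTGcggcggatcGGAGACgagttc
Bid: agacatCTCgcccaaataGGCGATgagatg
Bad: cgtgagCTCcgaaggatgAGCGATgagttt
Bbc3: gcccagCTGcggcggatgGCGGACgacctc

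The windows lie in the first exon of *Mcl1* (chr3:95659430-95659459, plus strand) and *Bcl2* (chr1:106712578-106712607, minus), and in the second exon of *Bcl2l1* (chr2:152829700-152829729, minus). They lie in the third exon of *Bax* (chr7:45466000-45466029, minus), *Bad* (chr19:6950786-6950815, plus) and *Bbc3* (chr7:16313767-16313796, plus), and in exon 4 of *Bak1* (chr17:27022534-27022563, minus) and *Bid* (chr6:120897292-120897321, minus). In *Bcl2l11* the window is at chr2:128147144-128147173 on the plus strand, all of it coding sequence. The search read the coding frame for 6 codons: leucine, then arginine, lysine or alanine, then any, then isoleucine, valine, alanine or methionine, then glycine, serine or alanine, then aspartate. Of the 17 member transcripts whose annotated version was at hand, all but 1 matched once, and 2.09% of 25986 tested coding transcripts held a match. The pattern allows for the variants within the family, so the members' matches are no test of it. The exception was *Bcl2l11-202*, with 0 matches.

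Of the 18 transcripts, 2 passed the likelihood ratio test of Sleuth (q under 0.05): *Bak1-202* rose in KD and *Bcl2l11-202* fell. That is 11.1% of the family's transcripts, beside 12.5% of all tested transcripts, so the share of calls in the family was close to the background. Of the 13 members whose mean reached 100 normalised estimated counts 2 were called, where 21.4% of all transcripts at that level were. By gene, 1 of the 9 tested had a transcript called higher (10.1% of all genes) and 1 had a transcript called lower (7.43%). All 9 had a summed level of at least 100, and for all genes at that level the shares were 17.9% and 12.7%.

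The changes were small. In 17 of the 18 transcripts the log2(fold change), KD over WT, was between -1 and 1, and the median size was 0.29 against 0.35 over all transcripts (0.29 and 0.28 where the mean reached 100). The estimate was above 0 for 10 members and below 0 for 8. A second test on the same estimates, Wald's, called 4 members (18.2% of all transcripts), adding *Bax-201* and *Bcl2l1-202* to the pair above, and with effects centred on classes of GC content it called only that pair. limma's moderated test called 2 (9.68%).

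The deposited table gives each transcript's mean and variance over the 4 libraries and its estimated effect, not the libraries one by one, so levels are given per group. With 2 libraries in each group these numbers nevertheless fix in many cases whether the groups overlap. For 9 of the 18 transcripts the KD libraries and the WT libraries could not overlap (54.8% of all transcripts), for 3 they had to overlap (34.2%), and for 6 it was not determined. The share without overlap was thus near that of all transcripts.

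**Figure D1:**
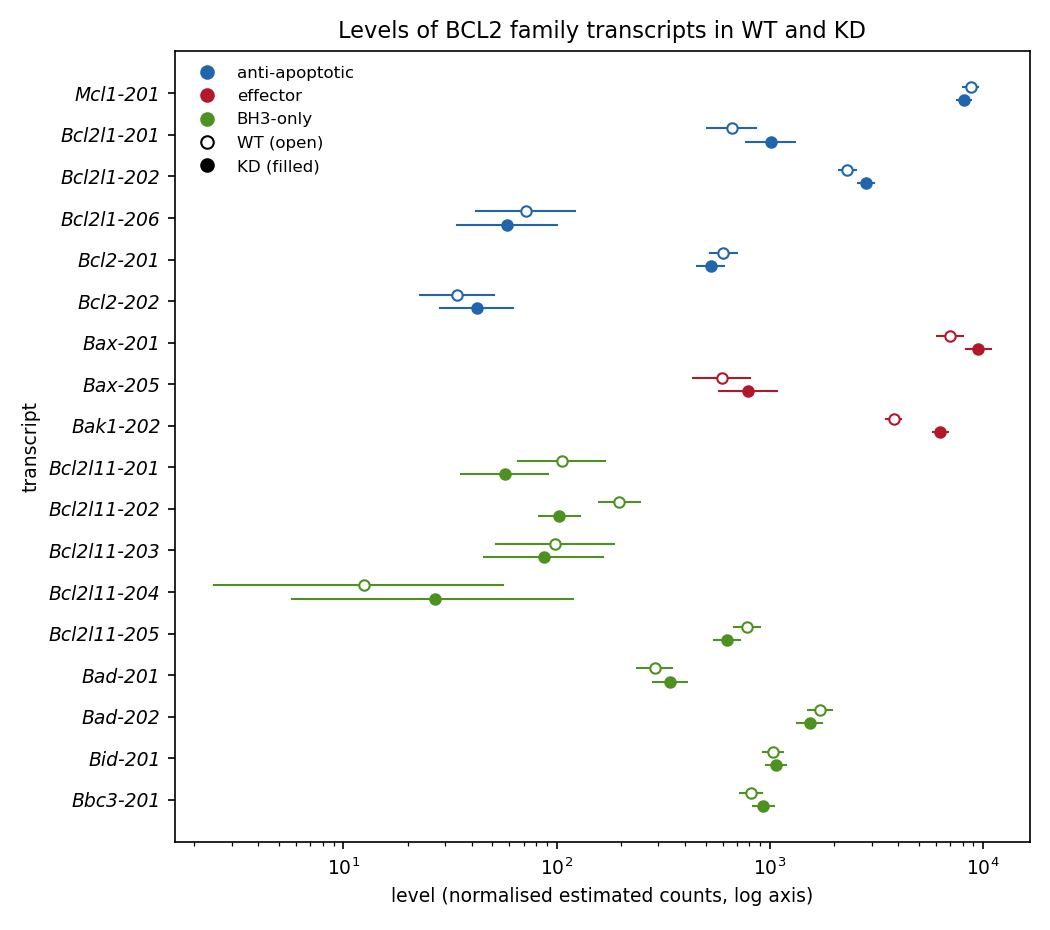
Level of each of the 18 tested BCL2 family transcripts in WT (open circles) and KD (filled circles), in normalised estimated counts on a log axis, coloured by role, with 95% intervals of the group level. *Bak1-202* lies at 3800.3 in WT and 6301 in KD and *Bcl2l11-202* at 197 and 103, both with intervals that do not meet.

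Among the anti-apoptotic genes no transcript passed Sleuth's likelihood ratio test. Of 6, 3 had an unadjusted likelihood ratio p under 0.05, as had 34.0% of all transcripts. Wald's test called 1 and limma called 0. *Mcl1*, whose protein is short-lived and must be made continually, had a single tested transcript of 3418 bases. *Mcl1-201* was at 8728 normalised estimated counts in WT (95% interval 8069 to 9441) and 8112 in KD (7499.5 to 8775). The log2(fold change) was -0.11 with an SE of 0.08 (q = 0.114), and whether the libraries of the groups overlapped was not determined. For *Mcl1-201* the unadjusted p was 0.0321 by the likelihood ratio test and 0.196 by Wald's. Its likelihood ratio statistic of 4.59 was made up of 5.71 from the ratio of fitted variances and -1.12 from the residuals.

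*Bcl2l1* encodes BCL-xL. Its main transcript, *Bcl2l1-202*, was at 2310.2 in WT (2112 to 2527) and at 2821 in KD (2579 to 3086), a difference of 22.1% (95% interval 7.57 to 38.6). The libraries of the groups could not overlap, and the log2(fold change) of 0.29 (SE 0.09) missed the likelihood ratio threshold (q = 0.0616) and passed Wald's (q = 0.0142). The Wald call was lost after centring on the median effect (0.24, q = 0.0551) and after centring on classes of GC content (0.08, q = 0.743). *Bcl2l1-201*, which differs from it by its first exon and shares its 233 coding codons, was at 663 in WT and 1009.5 in KD, with a log2(fold change) of 0.61 (SE 0.28, q = 0.126). The third transcript, *Bcl2l1-206*, lacks the last coding exon and was below 100 in both groups (71.5 and 58.5). Summed over the 3 transcripts the gene stood at 3045 in WT and 3889 in KD, a log2(fold change) of 0.35 (SE 0.10), with a combined gene q of 0.0573.

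*Bcl2*, the founding member, was the least abundant of the genes that could be ranked per length. *Bcl2-201* was at 603 in WT (522 to 698) and 527 in KD (456 to 610), a log2(fold change) of -0.19 (SE 0.15, q = 0.212). *Bcl2-202*, a transcript of 199 codons without the last coding exon, was at 34.2 and 42.2, and its libraries overlapped between the groups. Neither transcript was called by any of the tests run.

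Both effector genes had higher estimates in KD, and *Bak1* passed every test. *Bak1-202* (chr17:27019810-27029009, minus strand, 6 exons, 209 codons), the only tested transcript of the gene that encodes the resident effector BAK, was at 3800.3 normalised estimated counts in WT (3519.7 to 4103) and 6301 in KD (5836 to 6803). It rose by 65.8% (95% interval 48.7 to 84.8), a log2(fold change) of 0.73 with an SE of 0.08 (q = 0.0106). Centred on classes of GC content the log2(fold change) was 0.55, still called by Wald's test (q = 3.3e-10). The spread within groups was small, with a pooled SD of 0.05 on the log2 scale, and the KD libraries lay above the WT libraries. None of its 31-base words occurred in a transcript of another gene, so its reads could be told from those of other annotated genes.

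*Bax* encodes the effector that moves from the cytosol to mitochondria, and per kilobase it was the most abundant member. *Bax-201* was at 6991 in WT (6103 to 8007) and 9488 in KD (8283 to 10867). The difference of 35.7% was a log2(fold change) of 0.44 (95% interval 0.16 to 0.72, SE 0.14), which missed the threshold of the likelihood ratio test (q = 0.0676) and passed that of Wald's (q = 0.0132). Centred on classes of GC content it was 0.26, with the Wald call lost (q = 0.247). The libraries of the groups could not overlap. *Bax-205* was at 593 and 791, with a log2(fold change) of 0.41 (SE 0.32, q = 0.337).

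The *Bax* transcripts differ at the start of their last exon, which begins at chr7:45461966 in *Bax-201* and 4 bases further along in *Bax-205* (minus strand), leaving 192 and 171 codons. They also differ at their first base, chr7:45466898 in *Bax-201* and chr7:45466836 in *Bax-205*. The junctions are shown because reads can be assigned to one or the other partly by such bases. Bases after the junction are in capitals.
Bax-201: gaccagggtggctggGAAGGCCTCCTCTCC
Bax-205: gaccagggtggctggGCCTCCTCTCCTACT

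Their estimated shares of the gene's counts hardly moved: *Bax-205* made up 7.82% in WT and 7.69% in KD. Only 11.2% of the 31-base words of *Bax-201* and 3.63% of those of *Bax-205* are absent from the other tested *Bax* transcript, so this split is uncertain. Summed, *Bax* was at 7584 in WT and 10279 in KD, a log2(fold change) of 0.44 (SE 0.13), and its combined gene q was 0.0485. Of the 31-base words of *Bax-201*, 19.5% also occur in *Gm45808*, an overlapping annotated gene whose transcript was at 362 in WT and 522 in KD (log2(fold change) 0.53, SE 0.19, q = 0.0800). Reads from this stretch cannot be told apart, and their part in the *Bax* estimate was not tested.

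**Figure D2:**
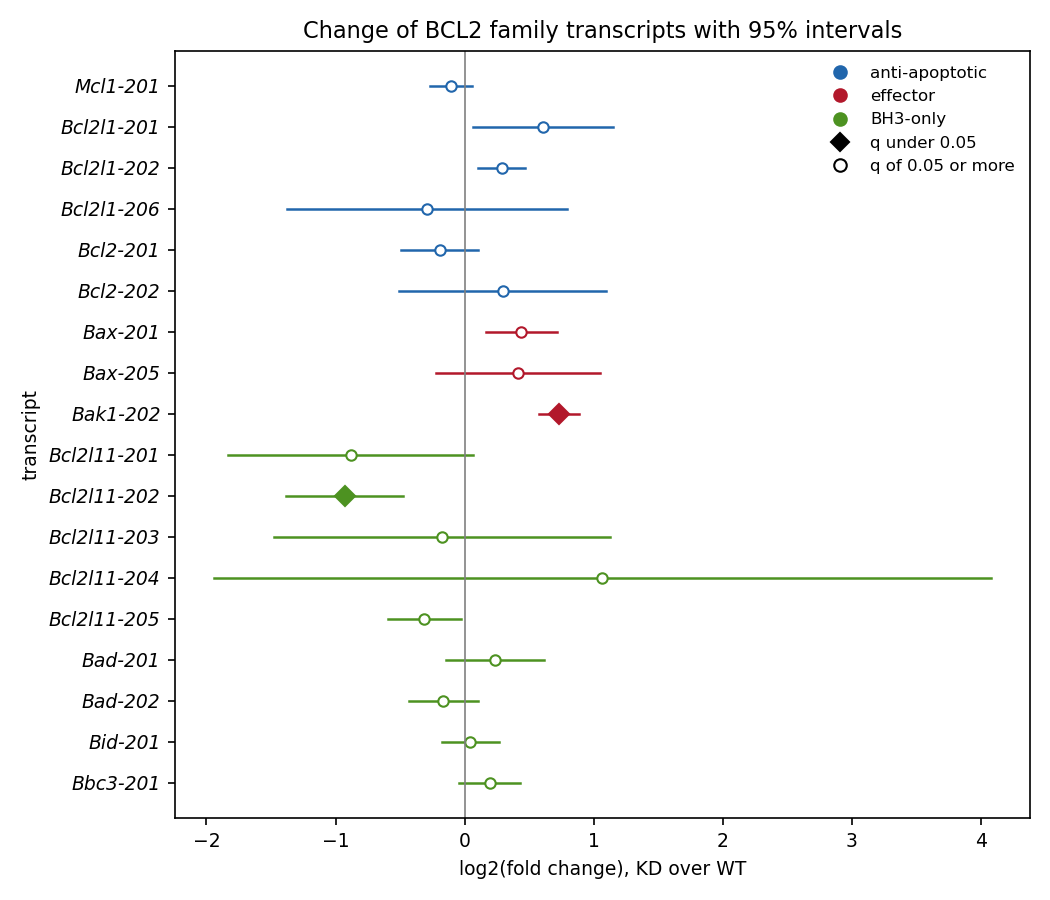
log2(fold change), KD over WT, of the 18 transcripts with 95% intervals, coloured by role; diamonds mark a likelihood ratio q under 0.05. The effectors lie to the right of 0, at 0.41, 0.44 and 0.73, and *Bcl2l11-202* at -0.93 is the one member whose fall passed the test.

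*Bcl2l11* encodes BIM, which binds all the anti-apoptotic members, and it is spliced into forms of different length. It was the one BH3-only gene with a call. Summed over its 5 tested transcripts it stood at 1193 in WT and 901 in KD, a log2(fold change) of -0.40 (SE 0.13), with a combined gene q of 0.0107. The sum of the 4 other transcripts was not tested on its own.

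The transcript that fell was *Bcl2l11-202* (chr2:128126038-128131495, plus strand, 4 exons). It was at 197 normalised estimated counts in WT (158 to 246) and 103 in KD (82.4 to 129). It fell by 47.5% (95% interval of the change -61.6% to -28.2%), a log2(fold change) of -0.93 with an SE of 0.23 (q = 0.0271), and the KD libraries lay below the WT libraries. The pooled SD within groups was 0.05 on the log2 scale. It rests on 2 libraries per group and is smaller than the SE of 0.23 that Sleuth gave, so it is no measure of precision.

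This transcript ends early. Its last exon, exon 4, begins at chr2:128129637, inside what is an intron for the other *Bcl2l11* transcripts, and those instead join the exon that begins at chr2:128147085 and holds the BH3 window printed above. *Bcl2l11-202* has 91 coding codons and the longest form, *Bcl2l11-205*, has 196. The junctions that set the forms apart are shown with the bases after the junction in capitals: the first follows exon 3 of *Bcl2l11-202*, the second joins the same upstream base to the BH3 exon in *Bcl2l11-205*, and the last joins an earlier upstream base to it in *Bcl2l11-201*.
Bcl2l11-202: atctcagtgcaatggATCAGTTGGAGAATC
Bcl2l11-205: atctcagtgcaatggCTTCCATACGACAGT
Bcl2l11-201: agacagaaccgcaagCTTCCATACGACAGT

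*Bcl2l11-205* was the most abundant form, at 779 in WT (678 to 895) and 627 in KD (546 to 721). Its log2(fold change) of -0.31 (SE 0.14) was not called (q = 0.0898), although the libraries of the groups could not overlap. *Bcl2l11-201*, of 110 codons, was at 106 in WT and 57.0 in KD, a log2(fold change) of -0.88 with a wider SE of 0.48 (q = 0.172). *Bcl2l11-203* was at 98.5 and 87.1 (q = 0.671) and *Bcl2l11-204* at 12.5 and 26.8 (q = 0.623), and neither difference exceeded its error.

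How well these forms could be separated differed. Of the 31-base words of *Bcl2l11-202*, 81.9% occur in no other tested transcript, against 30.4% for *Bcl2l11-205*, 0.855% for *Bcl2l11-201* and 0% for *Bcl2l11-203* and *Bcl2l11-204*. The part of Sleuth's variance that comes from assigning reads to transcripts was 30.5% for *Bcl2l11-202* and 32.6% for *Bcl2l11-205*. It was 81.3%, 90.6% and 92.5% for *Bcl2l11-201*, *Bcl2l11-203* and *Bcl2l11-204*, so most of the variance of these 3 forms was of this kind.

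As a share of the gene's counts *Bcl2l11-202* went from 16.5% in WT to 11.4% in KD, and *Bcl2l11-205* from 65.3% to 69.6%. The shares have no test of their own. Counted per length, *Bcl2l11-202* went from 26.0% to 17.4% and *Bcl2l11-205* from 47.0% to 48.5%. On that scale *Bcl2l11-201* went from 12.9% to 8.92%, *Bcl2l11-203* from 8.46% to 9.59% and *Bcl2l11-204* from 5.66% to 15.5%. *Bcl2l11-204* is the least abundant form, with an SE of 1.54 on its log2(fold change), so the shares per length are uncertain.

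**Figure D3:**
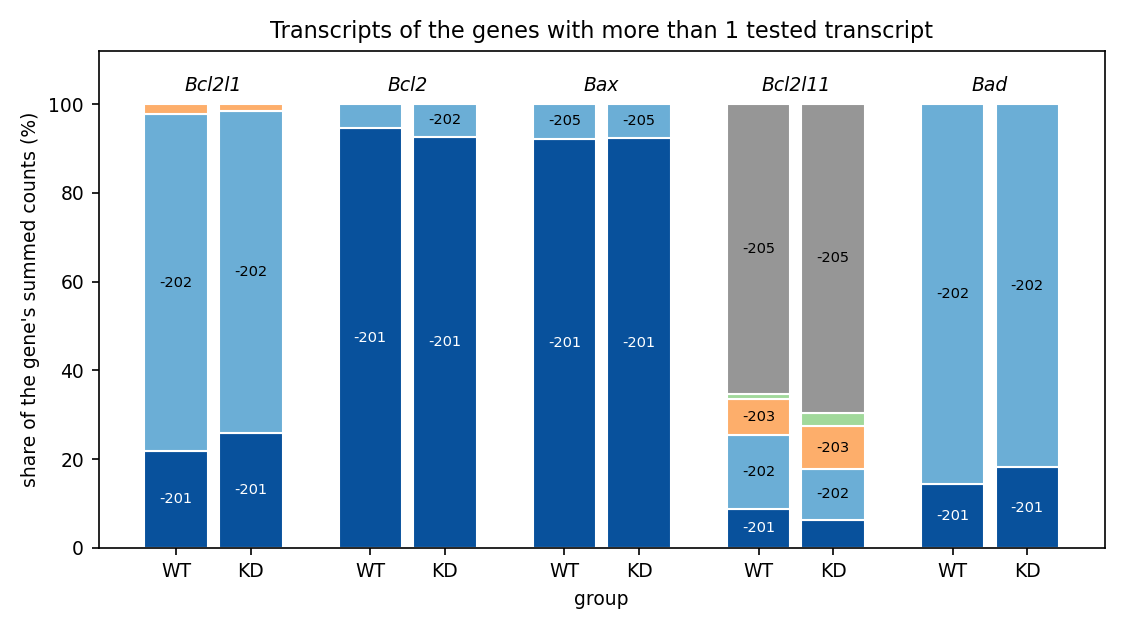
Share of each tested transcript in the summed normalised estimated counts of its gene (%), in WT and KD, for the genes with more than 1 tested transcript; numbers on the bars are transcript suffixes and segments under 7% are unlabelled. The largest segment of every gene is the same transcript in both groups, and *Bcl2l11-202* shrinks from 16.5% to 11.4%.

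The other BH3-only genes had no call. *Bad*, whose protein is kept inactive by phosphorylation and 14-3-3 binding, had transcripts with estimates of opposite sign. *Bad-202*, the more abundant, was at 1720.4 in WT (1509.7 to 1960.5) and 1534 in KD (1346 to 1748), a log2(fold change) of -0.17 (SE 0.14, q = 0.268). *Bad-201* was at 288 and 340, a log2(fold change) of 0.24 (SE 0.19, q = 0.170), and its share went from 14.3% to 18.1%.

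*Bid* encodes the BH3-only protein that caspase-8 cleaves to link death receptors to mitochondria. *Bid-201* was at 1034 in WT (928 to 1154) and 1067 in KD (957 to 1189.7). Its log2(fold change) was 0.04 with an SE of 0.11 (q = 0.153), the smallest of the family in size, and the libraries of the groups overlapped. The interval of the difference, -11.6% to 20.3%, bounds what these 4 libraries allow.

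*Bbc3* encodes PUMA, a p53 target. *Bbc3-201* was at 814 in WT (726 to 914) and 932 in KD (831 to 1047). The log2(fold change) of 0.20 (SE 0.12) was not called (q = 0.116), although the libraries of the groups could not overlap, and it was 0.01 after centring on GC classes.

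Per kilobase of transcript, the WT levels had the order *Bax* (8803, 95% interval 7753 to 9996), *Mcl1* (2554), *Bak1* (1592), *Bcl2l1* (1212), *Bid* (473), *Bbc3* (449), *Bcl2l11* (329) and *Bcl2* (96.0). Neighbours in this order had intervals that did not meet, except *Bid* (424 to 527) and *Bbc3* (400.0 to 504), which did not differ beyond their error. *Bax* was 3.45 times the level of *Mcl1*, and *Bcl2l11* 3.43 times that of *Bcl2*. *Bad* could not be placed since the annotation used here holds another version of *Bad-201*; *Bad-202* alone was at 1738 per kilobase.

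By combined gene q, 3 of the 9 tested genes were under 0.05, *Bak1* (0.00291), *Bcl2l11* (0.0107) and *Bax* (0.0485), beside 24% of all genes. All 9 had a summed level of at least 100, and of all genes at that level 41.3% were under 0.05. This q carries no direction. For *Bax* it stood just under the threshold and for *Bcl2l1*, at 0.0573, just over it.

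**Figure D4:**
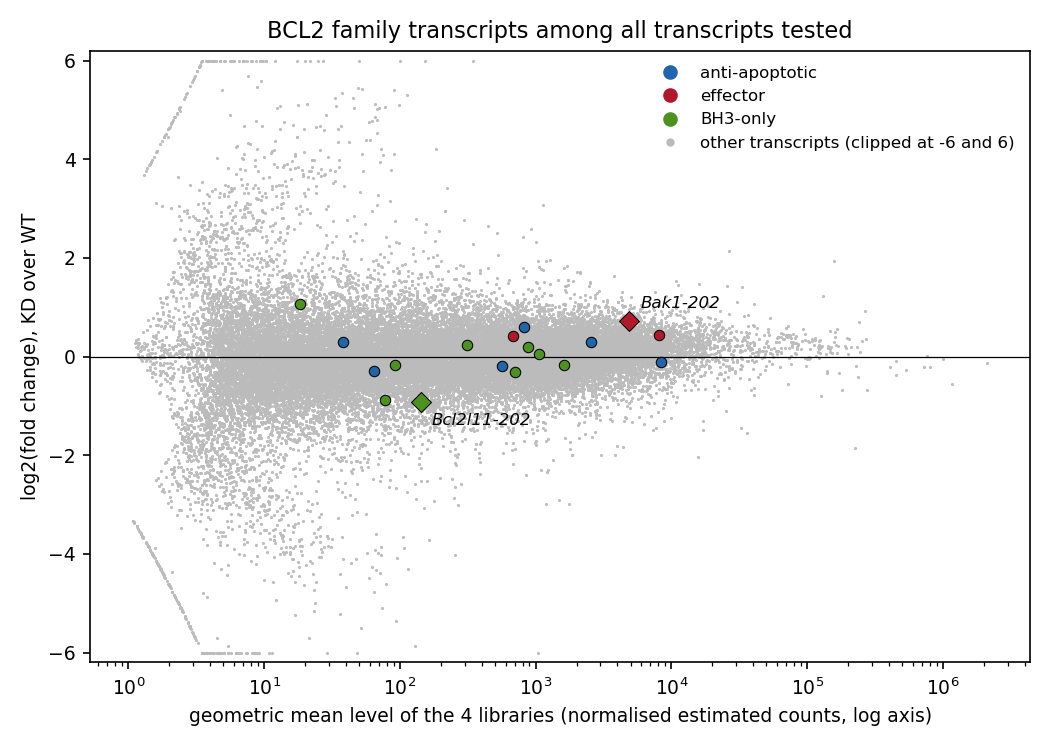
log2(fold change), KD over WT, against the geometric mean level of the 4 libraries (normalised estimated counts, log axis) for all 34200 tested transcripts (grey, clipped at -6 and 6), with the 18 BCL2 family transcripts coloured by role and the 2 called ones as diamonds. The family lies within the cloud, with 17 of 18 members between -1 and 1.

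The other apoptosis genes were taken from 7 lists of 101 genes in all, 90 of them tested. Of these, 16 had a transcript called higher in KD and 11 one called lower (17.8% and 12.2%), where all genes gave 10.1% and 7.43%. The list genes are well expressed, and among the 80 with a summed level of at least 100 the shares were 20.0% and 12.5%, beside 17.9% and 12.7% of all genes at that level. By combined gene q 39 of the 90 were under 0.05 (43.3%, beside 24% of all genes), and 38 of the 80 (47.5%, beside 41.3% of all genes at that level).

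The remaining BCL2 relatives had no called transcript. Of 11 tested genes (*Bcl2l2*, *Bok*, *Bmf* and others), with 19 transcripts, none passed the likelihood ratio test of Sleuth. An unadjusted p under 0.05 by that test was found for 4 transcripts, beside 34.0% of all transcripts, and Wald's test and limma called 0. Summed estimates ran from -2.72 to 2.37 on the log2 scale, the extremes being *Bcl2l14* (8.24 in WT, 0.826 in KD) and *Bik* (0.867 and 6.56), both far below 100 counts. By combined gene q 1 passed, *Bcl2l13*, a mitophagy receptor, at 2894 in WT and 3318 in KD (log2(fold change) 0.20, SE 0.08, q = 0.0606 for the transcript). These 3 genes were named after their values were seen.

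In the caspase list, which is not limited to caspases acting downstream of the mitochondrion, 1 of 9 tested genes had a transcript called higher. A transcript called lower was found for 2. *Casp6-201*, of an executioner caspase, rose from 584 to 1499 (log2(fold change) 1.36, SE 0.12, q = 0.0103). Of the 11 tested apoptosome and mitochondrial death factors 2 were called higher and 1 lower. *Vdac2-201*, of an outer membrane channel that binds BAK, rose from 9541 to 14295 (0.58, SE 0.08, q = 0.0147). *Dffa-202*, of the inhibitor of the caspase-activated DNase, fell from 543 to 355 (-0.61, SE 0.16, q = 0.0306). Summed over 2 tested transcripts *Dffa* went from 1050 to 810 (-0.37).

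Among 10 IAP family genes, which encode inhibitors of caspases and relatives, 1 was called, lower: *Naip5-201* fell from 789 to 492 (-0.68, SE 0.14, q = 0.0201). *Naip5* has near-identical paralogs, so how its reads were assigned is uncertain. Of 12 tested death receptor genes 2 were called higher and 2 lower. *Mlkl-201*, of the pore-forming protein of necroptosis, rose from 706 to 1193 (0.76, SE 0.18, q = 0.0240), and *Tnfsf10-201*, of the ligand TRAIL, fell from 108 to 44.8 (-1.26, SE 0.27, q = 0.0226). *Mlkl-201* is a minor transcript: summed over 2 tested transcripts *Mlkl* went from 4583 to 5920 (0.37).

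The list of regulators of BCL2 family proteins, kinases, 14-3-3 proteins, ubiquitin ligases and co-chaperones, had 5 of 23 tested genes called higher and 2 lower. *Ywhae-201*, of 14-3-3 epsilon, rose from 20872 to 44756 (1.10, SE 0.09, q = 0.0103), and *Gsk3b-201*, of a kinase that marks MCL1 for degradation, fell from 3721 to 2701 (-0.46, SE 0.08, q = 0.0172). Of 14 tested transcription factors of BCL2 family genes 6 were called higher and 3 lower. *Ddit3-201*, of the stress factor CHOP, rose from 3601 to 7088 (0.98, SE 0.08, q = 0.0103), and *Jun-201*, of an AP-1 subunit, fell from 11702 to 7436 (-0.65, SE 0.15, q = 0.0355).

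With transcripts summed per gene, the median log2(fold change) was 0.58 for the effectors, -0.11 for the anti-apoptotic members and -0.03 for the BH3-only members. It was 0.02 for the other BCL2 relatives, 0.15 for caspases, 0.11 for the apoptosome list, -0.25 for IAP genes, 0.11 for death receptor genes, 0.11 for regulators and 0.16 for transcription factors. Over all genes it was -0.03, and over genes with at least 100 in both groups 0.04.

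**Figure D5:**
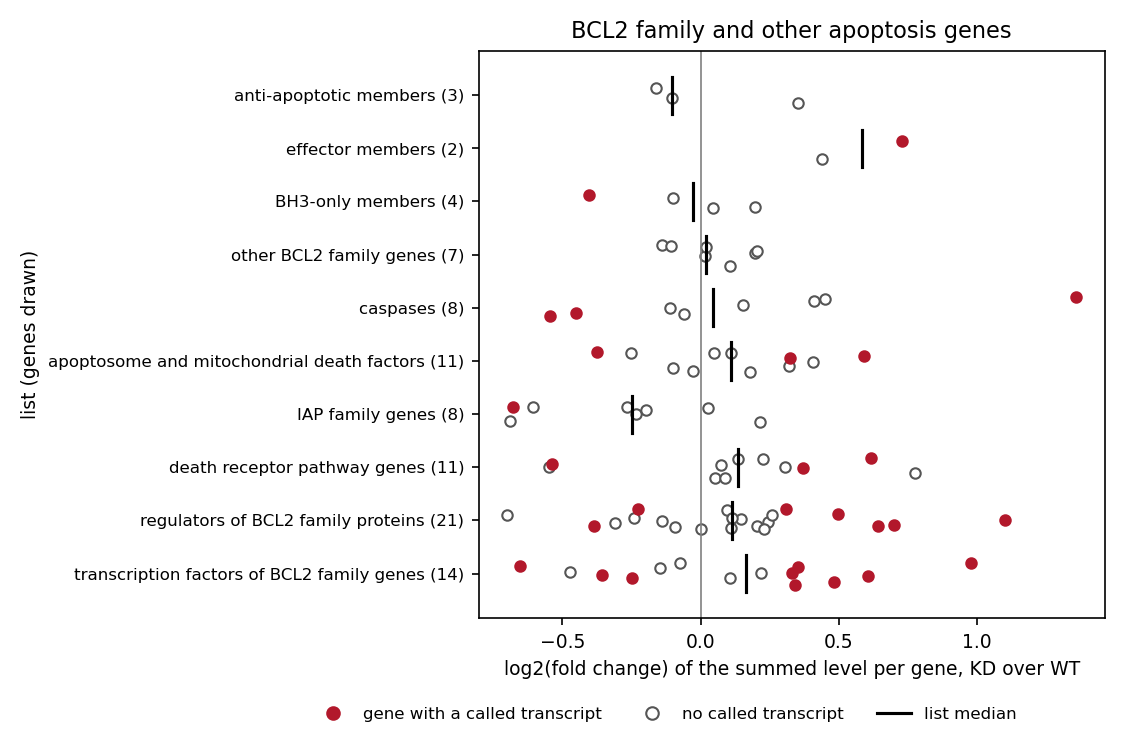
log2(fold change), KD over WT, of the summed level of each BCL2 family and other apoptosis gene with a mean summed level of at least 100, by list (vertical positions within a list are spread for legibility). Filled points have a called transcript and the bar is the median of the genes drawn; called genes lie on both sides of 0 in most of the other lists, and the effectors lie at 0.44 and 0.73.

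The targeted gene went with the labels: *Setd2-201* was at 3680.4 in WT and 923 in KD, a log2(fold change) of -1.99 (SE 0.09, q = 0.0103). Of 10 fibroblast markers all were tested and 9 had at least 100 in both groups. Of 10 markers of blood, epithelial, endothelial, muscle and neural cells 6 were tested, and these summed to 287 in WT and 255 in KD beside 1250948 and 1119097 for the fibroblast markers; Sleuth called 0 of their 9 transcripts, with 0 at an unadjusted p under 0.05 and 0 by Wald's test or limma. Of the fibroblast markers 3 were called higher, led by *Fn1-214* (log2(fold change) 1.25, SE 0.32, q = 0.0424), and 3 lower, led by *Col3a1-201* (-0.92, SE 0.12, q = 0.0137). *Fn1-214* is a minor transcript, at 7616 in WT beside 276425 for the sum of *Fn1*, which changed by 0.49. The part of the marker changes in the apoptosis results was not tested. In RNA from a whole culture, fewer cells of one state and less RNA per cell cannot be told apart. The sequencing depth of the libraries is not given in the tables.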

How the data were processed

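PolyA RNA of 2 KD and 2 WT libraries was sequenced. According to the methods, the authors trimmed reads with BBDuk (38.22), estimated transcript counts with Kallisto (0.44.0) and tested KD against WT with Sleuth (0.30.0); the submitters' processing notes also name bcl2fastq (2.17), HISAT2 and the GRCm38 build. Levels and effects in the authors' deposited table are on a natural log scale, ln(normalised estimated count + 0.5); the test statistic is a score, and the p-values and q-values deposited by the authors come from the likelihood ratio and Wald tests. The other columns of the authors' comparisons, for transcripts and for genes, were used only for these tests. Normalisation was Sleuth's size factors per library, after its filter on low counts. Such estimates divide shared reads among transcripts, so similar isoforms are less certain, and the depth of single libraries is unknown.

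From these, log2(fold change) was the effect divided by ln 2, and group levels were the mean shifted by 0.5 of the effect in each direction; intervals are 95%. The main call was the likelihood ratio q under 0.05 over all transcripts. Within-group variance, from the deposited variance and effect, gave the bounds on overlap. Alternatives were the Wald test, limma (3.58.1) on R (4.3.3), a mean of at least 100 counts, and centring on the median effect or on 50 classes of GC content. Statistics ran in Python (3.11.15) with pandas (2.3.3) and scipy (1.17.1) and were tested on simulated data. Transcript structures and sequences came from GENCODE M21, whose version matched for 17 of the 18 members. *Ddit3* had 2 gene identifiers, and the one with the higher level was counted.

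The named genes were every member transcript, *Setd2*, and in each other list the called transcripts with the largest rise and the largest fall, plus called members of the other BCL2 family genes. One transcript that this rule names is not reported here. The members and lists were chosen with earlier results of these data known.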

Additional observations from a re-analysis of the deposited data

How the results depend on the processing

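The number of BCL2 family transcripts called was 2 and became 4 with Wald's test and 4 with q-values recalculated over transcripts with a mean of at least 100; the additions were *Bax-201* and *Bcl2l1-202* in both cases. *Bak1-202* and *Bcl2l11-202* were called under all 5 alternatives. With Wald's test the 4 calls became 3 after centring on the median effect, without *Bcl2l1-202*, and 2 after centring on GC classes, without *Bax-201* as well. The 27 other apoptosis genes called became 46 with the filter, 23 with limma and 42 with Wald's test. With Wald's test, centring on the median effect gave 41 and centring on GC classes 32. Over all transcripts the calls were 12.5% by the likelihood ratio test, 18.2% by Wald's and 9.68% by limma. The share of all transcripts was not worked out for the filter or the centrings, nor that of all genes for any alternative. The counts therefore cannot be set against a general change in calls, and the cause of the changes was not tested. Centring on the median effect, a shift of 0.05 log2, turned *Bid-201* from 0.04 to -0.0036, with no call either way. Centring on GC classes kept the sign of all 18 members but cut several estimates. Among these, *Bak1-202* went from 0.73 to 0.55, *Bax-201* from 0.44 to 0.26, *Bcl2l1-202* from 0.29 to 0.08 and *Bbc3-201* from 0.20 to 0.01. The likelihood ratio statistic also credits a lower fitted variance: its median over all transcripts was 2.12, beside 0.455 for chi-square with 1 degree of freedom, and 34.0% of transcripts had an unadjusted p under 0.05 against 26.7% by Wald's test. The ratio of fitted variances gave 13.3 of the statistic of 15.5 for *Bak1-202* and 6.78 of 9.70 for *Bcl2l11-202*. No paired analysis was possible because the tables hold no values of single libraries; leaving out replicates was not run for the same reason. With 2 libraries per group, small changes of weakly expressed transcripts were not detectable.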
